A study of Sus scrofa with 24 samples.

Results

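Spleen was compared with liver, with jejunum and with jejunal Peyer's patch in pigs, gene by gene, to find what sets it apart once the B cells it shares with the patch are removed. The members are the 6 Spleen arrays of 24. Each gene was set against the highest of the other 3 tissue means (for genes higher in Spleen) or the lowest (for genes lower in Spleen), and a gene was called at a difference of at least 2 log2 units, which is 4-fold, over or under every other tissue. Of 10736 named genes tested, 140 were higher in Spleen than in each other tissue and 270 were lower.

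The groups were Spleen, Liver, Jejunum (a piece of jejunum free of patches) and Peyer (a piece of jejunum that carries a patch), with n = 6 each and 1 array of every tissue from each of animals 68, 69, 70, 71, 73 and 75. All were crossbred pigs, weaned at day 28 and killed at 10 weeks of age by bleeding after stunning, with free access to feed until then. No group carried a treatment. Each sample is a whole piece of tissue, so a difference cannot tell fewer cells of a type from less RNA per cell.

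The spleen filters blood and mounts immune responses to what the blood carries. Its red pulp holds venous sinuses, macrophages that take up aged red cells, and a store of monocytes and neutrophils. Its white pulp holds B cell follicles and T cell zones, and a muscular capsule with trabeculae encloses both. A Peyer's patch is also built of B cell follicles, but it lies under an absorptive epithelium. Liver and jejunum share the handling of absorbed lipids, drugs and amino acids, tasks not known of spleen.

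Expression was read from one-colour Agilent arrays. A level below is the log2 signal minus that of the 75th percentile on the same array, and levels of a gene in a tissue are given as the lowest, median and highest of its 6 arrays. Levels of different probes are not compared. Differences are Spleen minus another tissue on the same log2 scale, with the SE of a limma fit over all arrays. The smallest difference is the one from the nearest other tissue. Adjusted p-values come from limma with Benjamini-Hochberg adjustment over all 42650 probes tested, and the highest of the 3 is given.

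The 75th percentile of signal lay between 275.4 and 1098.1 on Spleen arrays, 423.8 and 525.7 on Liver, 680.9 and 1001.2 on Jejunum, and 876.7 and 2261.9 on Peyer. Precision is set by the number of arrays. Spleen arrays correlated with each other at 0.961 to 0.988 across probes, and with arrays of other tissues at 0.73 to 0.907. Spleen shared slides 1, 2 and 3 with Liver, whereas Jejunum and Peyer lay on slides 4, 5 and 6, so for these tissues the difference from Spleen cannot be told apart from the slide set. The 3 differences also share the same Spleen arrays. The Peyer array of animal 71 stood apart from its group. Its 15 B cell genes averaged -0.34, against 2.24 to 2.39 on the other Peyer arrays, and -2.25 to -1.95 on Jejunum arrays. Without it 122 genes were higher and 249 lower, all among the 140 and 270. The Spleen array of animal 73 stood apart for genes of gut epithelium, as given with the lower genes.

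Probes that carry the main results are shown first, because several of the genes described below rest on the exact strand or stretch a probe reads. All are 60-base array probes from the scanner files, written 5′ to 3′ in lower case, and their genome positions are not given in the sources used here. Capitals mark a run of bases that a probe shares with another probe of the same gene. The first set belongs to genes higher in Spleen. The WT1 probe printed is not the one used for its levels: it gave the lowest of its 3 smallest differences, 3.48. ITGAD, CHN1 and GSC had 1 probe each.

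WT1: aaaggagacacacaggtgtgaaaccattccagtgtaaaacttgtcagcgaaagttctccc
ITGAD: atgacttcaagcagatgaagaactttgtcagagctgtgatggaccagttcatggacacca
CHN1: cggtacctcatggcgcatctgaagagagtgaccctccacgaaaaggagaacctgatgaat
GSC: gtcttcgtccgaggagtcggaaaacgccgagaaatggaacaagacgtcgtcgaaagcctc

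PPARG is shown with 3 probes, since each of them passed the threshold and they read different stretches. The probe used for its levels and a neighbour share 53 bases and differed from the nearest tissue by 3.72 and 3.81. An independent stretch, named O15024 on the array, gave 3.18.

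PPARG A_72_P636927: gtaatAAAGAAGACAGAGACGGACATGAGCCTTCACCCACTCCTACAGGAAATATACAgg
PPARG A_72_P441339: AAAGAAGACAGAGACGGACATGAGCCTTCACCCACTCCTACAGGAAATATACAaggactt
PPARG O15024: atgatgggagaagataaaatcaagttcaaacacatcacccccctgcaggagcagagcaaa

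NPPC is shown because its probes read opposite strands. The capitals in O13724 are the reverse complement of 25 bases in the other probe. The probe on one strand put NPPC 4.78 above the nearest tissue, and the probe on the other strand gave 0.30.

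NPPC A_72_P223442: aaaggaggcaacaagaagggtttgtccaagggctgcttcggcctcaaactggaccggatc
NPPC O13724: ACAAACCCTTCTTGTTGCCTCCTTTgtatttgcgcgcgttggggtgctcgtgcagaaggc

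APOB and FABP1 head the genes lower in Spleen, and their probes close the set.

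APOB: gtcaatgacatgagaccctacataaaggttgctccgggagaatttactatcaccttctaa
FABP1: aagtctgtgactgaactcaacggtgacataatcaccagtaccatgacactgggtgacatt

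The 140 genes higher in Spleen are 1.3% of the genes tested, and the 270 lower are 2.51%. Genes higher than every other tissue thus make up 34.1% of the called genes, a share that was 4.03% in the authors' deposited table, where 12 genes were higher and 286 lower. That table keeps little of the difference between slide sets, as described with the processing. By the same rule 615 genes were higher in Liver (5.73%), 16 in Jejunum (0.149%) and 18 in Peyer (0.168%), and 291 were lower in Liver (2.71%), 19 in Jejunum (0.177%) and 2 in Peyer (0.0186%). In single comparisons, 1061 genes were lower in Spleen than in Liver (9.88%), 583 higher and 864 lower than in Jejunum (5.43% and 8.05%), and 384 higher and 582 lower than in Peyer (3.58% and 5.42%). The gap to the nearest tissue was moderate on the higher side, with a median of 2.40, 28 genes at 3 or more and 6 at 4 or more. On the lower side the median was -3.38, 164 genes lay 3 or more below and 19 lay 8 or more below. All 6 Spleen arrays were above all 18 others for 129 of the 140 genes, and below them for 252 of the 270. Over all genes tested, 7.65% had every Spleen array on top and 6.41% had every Spleen array at the bottom.

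The tissue nearest to Spleen was Peyer for 58 of the higher genes, Liver for 57 and Jejunum for 25. For the lower genes it was Peyer for 183, Liver for 84 and Jejunum for 3. Just inside the threshold stood CLEC7A, FMNL1 and SH2D1A at 2.0 to 2.01, and just outside it CRYGS, ZNF366 and GIMAP4 at 1.99. On the lower side GSTK1, TMEM86B and EPS8L3 lay just inside at -2.01 to -2.04, and ACOX2, TMEM220 and SLC28A1 just outside at -1.97 to -1.99.

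**Figure D1:**
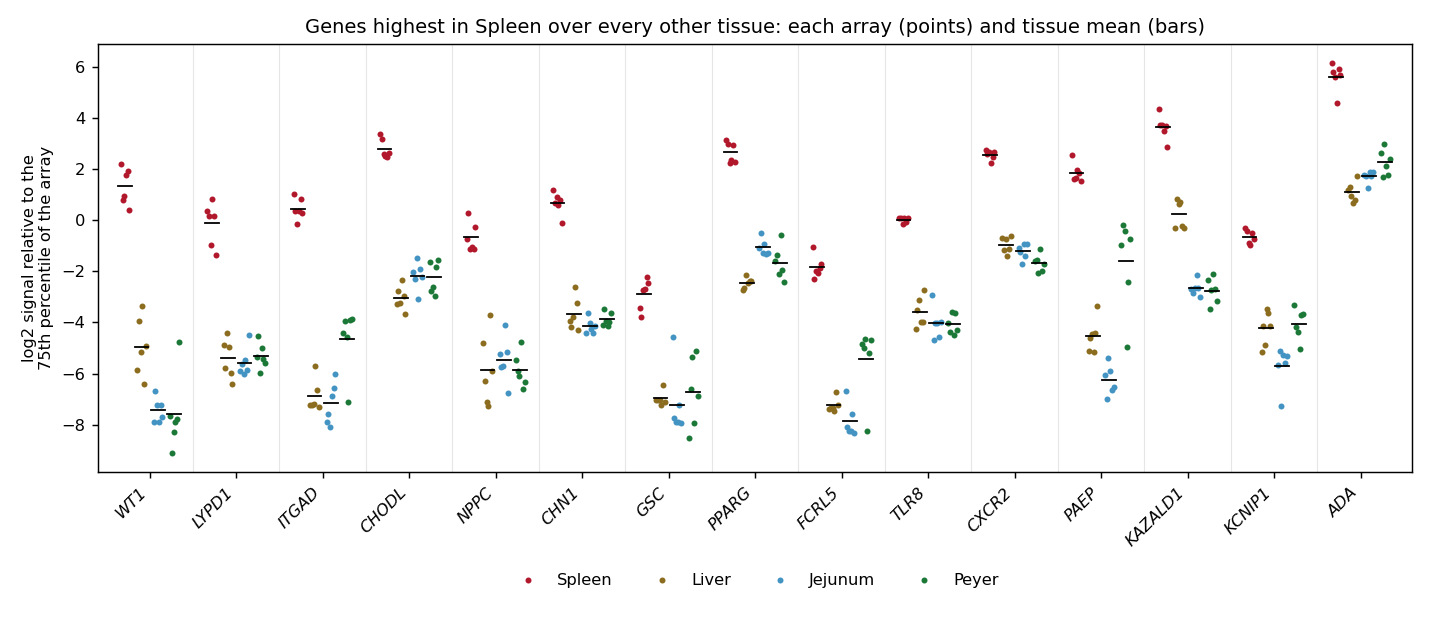
Levels (log2 signal relative to the 75th percentile of the array) of the 15 genes furthest above every other tissue among genes higher in Spleen, 1 point per array and a bar for each tissue mean, with 6 arrays per tissue. Every Spleen array lies above every array of the other tissues for these genes, from WT1 with a smallest difference of 6.28 to ADA with 3.36.

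CHODL, CHN1, PPARG, TLR8 and CXCR2 were given as spleen markers with earlier results of these data known, so that all 5 were called higher is a description and no check of the tissue labels. WT1 led the genes higher in Spleen. It encodes a zinc finger transcription factor without which mice do not form a spleen. Its levels were 0.39, 1.35 and 2.18 in Spleen, -6.42, -5.04 and -3.36 in Liver, -7.89, -7.46 and -6.67 in Jejunum, and -9.10, -7.83 and -4.76 in Peyer. Every Spleen array lay above every other array, and WT1 was well above background on 2 Liver, 0 Jejunum and 1 Peyer arrays. The smallest difference was 6.28 ± 0.56 (SE; limma adjusted p = 6.7e-10), and 3 WT1 probes gave 3.48 to 6.28. Within slides 1, 2 and 3, which carry Spleen and Liver of 2 animals each, Spleen minus Liver was 6.4, 5.6 and 6.83 for WT1 and 6.29, 5.33 and 5.85 for CHODL.

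NR5A1, a nuclear receptor that mice need for the adrenal gland, the gonads and the vessels of the spleen, was the other patterning factor called higher. Its levels were -4.48, -3.28 and -3.12 in Spleen, -7.43, -5.81 and -5.31 in Liver, -8.17, -5.99 and -5.32 in Jejunum, and -7.46, -6.72 and -5.69 in Peyer. The groups did not overlap, but NR5A1 was not well above background on any Liver array, so it was at least 2.56-fold higher in Spleen (limma adjusted p = 1.9e-05). Of 15 transcription factors known from spleen development or from neighbouring organs, 8 were measured. Among these 2 were called higher and 2 lower, against 1.3% and 2.51% of all genes tested. The lower ones were GATA4, at least 1.98-fold, and HOXA5 by -2.08 ± 0.21. GATA4 is a factor of heart, liver and gut, and HOXA5 patterns the trunk. The GATA4 probes include a pair on opposite strands. The other 4 measured factors were TCF21, BARX1, NR2F2 and PITX1.

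WT1 is also known as a mesothelial gene, and 3 of 10 mesothelium markers were measured. UPK1B was over Liver by 3.2 ± 0.45 and over Jejunum by 2.65 ± 0.45. From the nearest tissue, Peyer, it differed by 0.72 ± 0.45 (limma adjusted p = 0.18). KRT7 was over Jejunum and Peyer by 1.24 and 0.96 and differed from Liver by -0.55 ± 0.35 (limma adjusted p = 0.17). The third, the complement gene C3, was lower in Spleen by -2.98 ± 0.15. The mean of the 3 lay between -0.40 and 1.21 on Spleen arrays, 0.69 and 1.92 on Liver, -0.46 and 0.12 on Jejunum, and 0.06 and 1.07 on Peyer. That mean includes C3, which averaged 2.59 in Spleen, 8.17 in Liver, 5.82 in Jejunum and 5.57 in Peyer. The part of mesothelium in the WT1 result was not tested.

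CHODL, which encodes the membrane lectin chondrolectin, had levels of 2.45, 2.60 and 3.38 in Spleen, -3.67, -3.11 and -2.35 in Liver, -3.08, -2.14 and -1.48 in Jejunum, and -2.97, -2.24 and -1.57 in Peyer. The 3 other tissues lay close together and far under Spleen. Spleen exceeded the nearest tissue by 4.96 ± 0.28, or 31.0-fold (limma adjusted p = 4.9e-13).

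CHN1 encodes a chimaerin that switches off the GTPase Rac. It showed -0.11, 0.72 and 1.18 in Spleen, -4.29, -3.87 and -2.60 in Liver, -4.43, -4.19 and -3.63 in Jejunum, and -4.15, -3.97 and -3.46 in Peyer. Again no array outside Spleen reached the Spleen range, and the smallest difference was 4.34 ± 0.24 (limma adjusted p = 2.4e-13).

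PPARG is a nuclear receptor of fat cells that macrophages use as well. Spleen arrays gave 2.24, 2.64 and 3.14, against -2.72, -2.42 and -2.14 in Liver, -1.32, -1.20 and -0.49 in Jejunum, and -2.43, -1.78 and -0.59 in Peyer. Spleen did not overlap another tissue, and the smallest difference, from Jejunum, was 3.72 ± 0.24 (limma adjusted p = 3.7e-12). Of 11 adipose genes 10 were measured, 0 were called higher in Spleen and 2 lower, against 1.3% and 2.51% of all genes tested. CIDEC, a lipid droplet gene, differed by -6.17 ± 0.38. The glycerol channel AQP7 was at least 1.18-fold lower, with arrays that overlapped those of Liver, and its direction turned in the authors' deposited table (0.08).

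Among other leading genes, LYPD1, NPPC, GSC and KCNIP1 are genes studied mainly in nerve, vessel and embryo. LYPD1 modulates nicotinic receptors, NPPC encodes C-type natriuretic peptide, GSC is the homeobox gene goosecoid and KCNIP1 is a calcium sensor of potassium channels. LYPD1 had -1.37, 0.17 and 0.84 in Spleen and no array above -4.41 elsewhere, with a smallest difference of 5.18 ± 0.38. GSC was low even in Spleen (-3.79, -2.71 and -2.23) and was well above background on 0 Liver, 1 Jejunum and 3 Peyer arrays. Its smallest difference was 3.85 ± 0.54 (limma adjusted p = 2.8e-06). KCNIP1 differed by 3.40 ± 0.34, and its second probe by 1.41.

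KAZALD1, a secreted protein with a Kazal domain, had 2.85, 3.69 and 4.34 in Spleen and was nearest in Liver at -0.30, 0.19 and 0.82. PAEP, a lipocalin, had 1.54, 1.73 and 2.53 in Spleen and -4.98, -0.86 and -0.18 in Peyer. In both, the lowest Spleen array stood above the highest array elsewhere. The smallest differences were 3.41 ± 0.26 for KAZALD1 and 3.47 ± 0.56 for PAEP. Without the Peyer array of animal 71 the PAEP value was 2.79.

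ADA, adenosine deaminase, breaks down adenosine and is needed by lymphocytes. Levels were 4.58, 5.72 and 6.12 in Spleen, 0.67, 1.06 and 1.73 in Liver, 1.25, 1.75 and 1.89 in Jejunum, and 1.68, 2.24 and 2.98 in Peyer. The groups did not overlap, although the Spleen array of animal 71 was well under the others. From Peyer it differed by 3.36 ± 0.24, or 10.3-fold (limma adjusted p = 4.1e-11). ADA2, the secreted enzyme of the same reaction, was among the 140 genes too, at 2.58, and was singled out after its value was seen.

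Myeloid genes were among those that remained once Peyer was taken into account. Of 20 neutrophil genes 13 were measured, and 3 were called higher, where 1.3% of all genes were. CXCR2 and PGLYRP1 were among them. CXCR2, the receptor that draws neutrophils to chemokines, had 2.21, 2.62 and 2.73 in Spleen, -1.42, -0.93 and -0.61 in Liver, -1.72, -1.16 and -0.94 in Jejunum, and -2.06, -1.65 and -1.12 in Peyer. Spleen arrays lay close together and none overlapped the others. From Liver it differed by 3.51 ± 0.17 (limma adjusted p = 1e-14).

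PGLYRP1, a granule protein that binds bacterial wall, was higher by 2.12 ± 0.66 (limma adjusted p = 0.0089). The 3 PGLYRP1 probes ran from 0.03 to 2.12. The granule calgranulins did not pass: S100A8, S100A9 and S100A12 were over Liver by 1.64, 1.93 and 1.22. The list's median smallest difference was 1.22, against -0.34 over all genes tested.

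Of 20 genes typical of red pulp macrophages 17 were measured and 5 were called higher, where 1.3% of all genes were. They were VCAM1, CSF1R, C1QA, C1QB and C1QC. VCAM1, an adhesion molecule of these macrophages and of stroma, had 5.30, 5.53 and 6.54 in Spleen, 1.27, 1.48 and 2.15 in Liver, 0.65, 1.06 and 1.47 in Jejunum, and 1.06, 3.29 and 3.78 in Peyer. The lowest Spleen array was above the highest Peyer array, and the smallest difference was 2.73 ± 0.34 (2.36 without the Peyer array of animal 71). CSF1R, the receptor for the macrophage growth factor, differed by 2.69 ± 0.28.

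The C1Q genes encode the chains of the complement starter C1q, and all were called higher. C1QA, C1QB and C1QC were over Liver by 2.16 ± 0.16, 2.15 ± 0.17 and 2.18 ± 0.15 and over both gut tissues by more. C1QB ranged over 7.15, 7.40 and 7.69 in Spleen and 4.72, 5.37 and 5.55 in Liver, with no overlap. A second probe of C1QA gave 1.52 and a second probe of C1QB 1.07, so these calls depend on the probe.

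Some other genes of the same macrophages stood as high in Liver as in Spleen, or higher. CD163, the scavenger receptor for haemoglobin, had 3.87, 4.68 and 5.11 in Spleen and 3.74, 4.39 and 5.34 in Liver, ranges that overlap almost fully. CD5L and SLC40A1, the iron exporter, differed from Liver by -0.56 and -0.63. For MRC1, VSIG4 and CD14, Spleen minus Liver was -3.93, -4.49 and -3.44. HMOX1, MERTK, CD68 and NR1H3 exceeded every other tissue, by 1.95, 1.46, 1.36 and 0.41, and SIGLEC1 and SLC11A1 by 0.16 and 0.07. The list's median smallest difference was 0.41.

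ITGAD encodes the integrin alpha D chain, which in dog and human is known from red pulp macrophages, but it was on no list. It had -0.16, 0.35 and 1.01 in Spleen and -7.11, -4.20 and -3.88 in Peyer. It was not well above background on any Liver or Jejunum array. The lowest Spleen array lay far over the highest Peyer array, and the smallest difference was 5.08 ± 0.46, or 33.9-fold (limma adjusted p = 2.2e-09). Without the Peyer array of animal 71 it was 4.59.

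TLR8, an endosomal receptor for single-stranded RNA, was tight in Spleen at -0.15, 0.07 and 0.08. It had -4.27, -3.74 and -2.72 in Liver, -4.67, -4.03 and -2.94 in Jejunum, and -4.51, -4.15 and -3.61 in Peyer. It differed from Liver by 3.61 ± 0.26, or 12.2-fold (limma adjusted p = 1.9e-11). Of 10 Toll-like receptors 9 were measured, and TLR4, which responds to bacterial lipopolysaccharide, was the other called higher, by 2.75 ± 0.21. Over all genes tested 1.3% were called higher. TLR7 and TLR9 were over Liver and Jejunum by more than the threshold and over Peyer by 1.66 and 1.23. TLR3 and TLR6 differed from Liver by -1.26 and -0.29, and TLR10 differed from Peyer by 0.06.

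Of 18 genes of dendritic cells and monocytes 8 were measured and 2 were called higher, where 1.3% of all genes were. They were XCR1, which marks the cross-presenting type, and SIRPA, an inhibitory receptor of myeloid cells. XCR1 was higher by 2.59 ± 0.21 and SIRPA by 2.19 ± 0.17, although the 4 SIRPA probes ran from 0.49 to 2.93. The list's median smallest difference was 0.50. CCR2 and CD83 exceeded every other tissue by 1.99 and 0.66, short of the threshold. IRF7, IL3RA and CD86 differed from the nearest tissue by 0.08, 0.16 and 0.33, and LYZ, the lysozyme gene, differed from Jejunum by -5.42. Further myeloid genes among the 140 were picked after their values were seen. The chemokine receptors CCR1 and CCR3 differed by 3.18 and 2.94, the adaptors TYROBP and FCER1G by 2.57 and 2.53, the integrin chain ITGB2 by 2.37 and SPI1, the myeloid master factor, by 2.02.

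Of 21 genes of NK and cytotoxic T cells, 19 were measured, and EOMES and KLRK1 were called higher, where 1.3% of all genes were. EOMES, a transcription factor of NK cells and memory T cells, had 0.50, 1.43 and 1.67 in Spleen, -2.46, -1.74 and -1.15 in Liver, -4.13, -3.96 and -3.31 in Jejunum, and -3.72, -2.68 and -1.92 in Peyer. No other array reached Spleen, and the smallest difference was 3.01 ± 0.27 (limma adjusted p = 6.4e-10). KLRK1, the activating receptor NKG2D, differed by 2.78 ± 0.32. KLRC1 and GZMM, picked after their values were seen, differed by 3.10 and 2.81. The granzymes GZMA and GZMB were lower in Spleen than in Jejunum, at -4.67 and -2.77. GZMK and GZMH exceeded every other tissue by 1.11 and 0.23, and NKG7, CTSW and NCR1 by 1.96, 1.91 and 1.58. TBX21 and NCR3 differed from the highest other tissue by -0.61 and -0.19. The list's median smallest difference was 0.95.

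**Figure D2:**
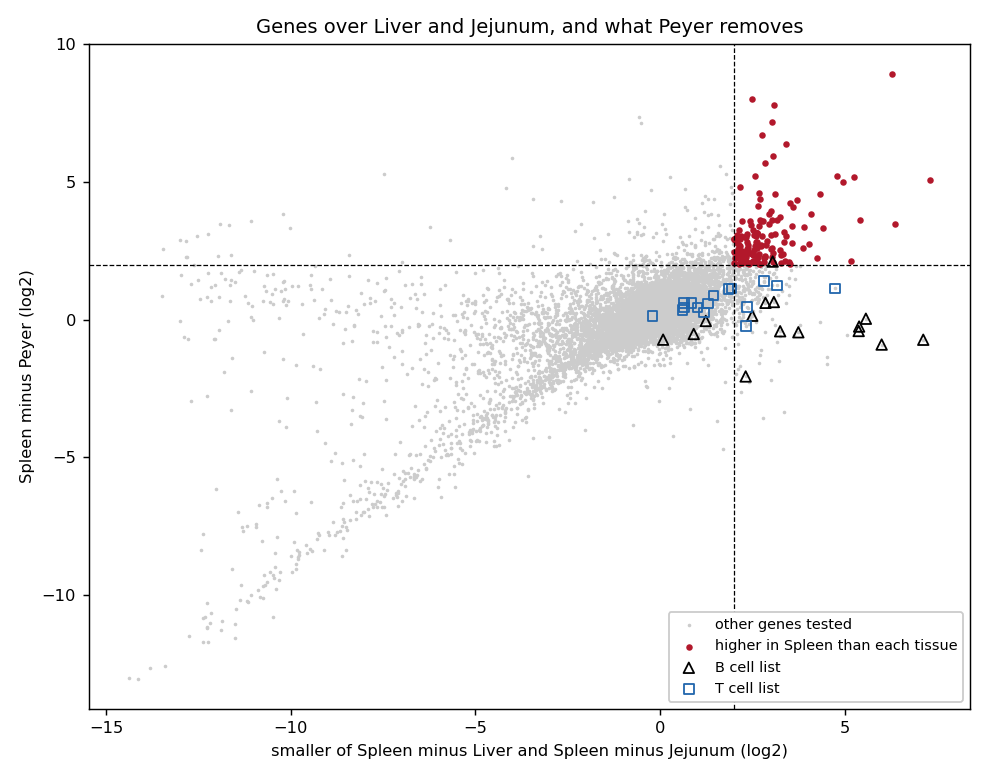
Each of the 10736 genes tested, with the smaller of Spleen minus Liver and Spleen minus Jejunum on the x axis and Spleen minus Peyer on the y axis (both log2), dashed lines at 2. Of 352 genes over Liver and Jejunum 140 (red) are also over Peyer, and 14 of the 15 B cell genes (triangles) lie under that line.

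Requiring a difference from each tissue in turn shows what Peyer removes. Over Liver 1002 genes were higher in Spleen (9.33%), and 352 of these were also over Jejunum. Peyer left 140 of the 352, or 39.8%. Among the 212 dropped, Spleen was at or below Peyer for 39 and above it by less than the threshold for 173. Without the Peyer array of animal 71, 122 of 353 were left, or 34.6%.

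Of 20 B cell genes listed, 15 were measured, 14 were over Liver, 12 were over Liver and Jejunum and 1 was over all. Their median differences were 4.22 from Liver, 3.08 from Jejunum and -0.41 from Peyer, or -0.84 without the Peyer array of animal 71. The median over all genes tested was 0.10, 0.14 and 0.11. MS4A1, which encodes CD20, had 1.42, 1.81 and 2.14 in Spleen and -1.19, 2.33 and 2.48 in Peyer, which overlap.

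The exception was BTK, a kinase of B cell receptor signalling that myeloid cells use too. BTK had -1.54, -0.58 and -0.12 in Spleen, -4.70, -3.87 and -3.20 in Liver, -4.17, -3.82 and -3.41 in Jejunum, and -3.97, -2.39 and -2.12 in Peyer. It did not overlap with another tissue, and its smallest difference was 2.11 ± 0.32 (limma adjusted p = 9.4e-06). Without the Peyer array of animal 71 it was 1.91, which ends the call and leaves 0 B cell genes.

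FCRL5, a receptor of B cells that was on no list, stayed over Peyer. It had -2.31, -1.93 and -1.06 in Spleen and -8.25, -4.93 and -4.66 in Peyer, and was not well above background on any Liver or Jejunum array. No Peyer array reached Spleen, and the smallest difference was 3.61 ± 0.44 (limma adjusted p = 3.3e-07). Without the Peyer array of animal 71 it was 3.05. Among plasma cell genes, 9 of 14 were measured and 1 was called higher, where 1.3% of all genes were. It was SLAMF7, also known from NK cells, by 2.63 ± 0.34. IGLL1, annotated as an immunoglobulin lambda-like gene, was over Peyer by 1.63.

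None of the measured members of the T cell list passed the threshold over all 3 tissues. Of 24 listed, 16 were measured, 14 were over Liver, 5 over Liver and Jejunum and 0 over Peyer as well. Their median difference from Liver was 3.68, and their median smallest difference was 0.59. CD27 and LEF1 came nearest to the threshold at 1.40 ± 0.35 and 1.24 ± 0.31, both from Peyer. Outside the list, the T cell signalling genes SH2D1A and TXK were among the 140 at 2.01 and 2.28, TXK picked after its value was seen. Of 24 cell cycle genes 19 were measured, 12 were over Liver and 0 over Jejunum as well, and of 18 measured housekeeping genes 0 were called either way.

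Of 20 erythroid genes listed, 14 were measured and 3 were called higher, where 1.3% of all genes were. AHSP and HBB were among them. AHSP, the chaperone of alpha globin, had 4.17, 5.02 and 6.08 in Spleen, -0.07, 1.98 and 3.49 in Liver, -2.88, -2.36 and -2.05 in Jejunum, and -3.32, -2.91 and -2.05 in Peyer. Spleen and Liver did not overlap, and the gut tissues lay far under both. From Liver it differed by 3.08 ± 0.40 (limma adjusted p = 4.1e-07).

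HBB, the beta globin, had 4.39, 5.75 and 5.99 in Spleen and 0.81, 3.23 and 4.31 in Liver and differed by 2.5 ± 0.46. HBE1, annotated as an embryonic globin and picked after its value was seen, differed by 2.85 with overlap. KLF1 and ALAS2, which precursors of red cells need, differed from Liver by -0.04 and 0.01. TFRC, the transferrin receptor, differed from it by -3.01. Within slides 1, 2 and 3, Spleen minus Liver was 2.37, 2.95 and 3.93 for AHSP. CA2, a carbonic anhydrase, differed from it by -3.62. CA1, HEMGN, EPOR and GATA1 exceeded every other tissue by 1.89, 1.59, 1.14 and 0.94, short of the threshold. ANK1, EPB42 and SLC4A1 differed from the highest other tissue by -0.14, -0.54 and -2.01. The list's median difference from Liver was 0.47. The mean of the 14 genes was -0.76 to 0.27 on Spleen arrays, -1.0 to 0.03 on Liver, -2.96 to -2.70 on Jejunum and -3.03 to -2.64 on Peyer, so Spleen and Liver overlapped. The part of blood left in the tissue was not tested.

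Of 20 genes of sinus endothelium and lymphoid stroma 17 were measured and 1, MADCAM1, was called higher, where 1.3% of all genes were. MADCAM1, an addressin for lymphocytes, had 4.67, 5.43 and 5.65 in Spleen, 1.16, 2.05 and 2.22 in Liver, 1.86, 1.97 and 2.34 in Jejunum, and 2.42, 3.36 and 3.87 in Peyer. The groups did not overlap and the smallest difference was 2.05 ± 0.24. Without the Peyer array of animal 71 it was 1.88, which ends the call. CCL21, a chemokine of T cell zones, differed by 1.22 ± 0.36. CXCL13, which draws B cells into follicles, was over Liver and Jejunum and differed from Peyer by -0.55.

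The smooth muscle list, 15 of 16 genes measured, showed 12 genes over Liver and 0 over Jejunum as well. ACTA2 had 6.89, 7.59 and 7.72 in Spleen, 2.89, 3.42 and 3.74 in Liver, 5.62, 5.94 and 6.15 in Jejunum, and 5.02, 5.26 and 5.94 in Peyer. Spleen arrays were all on top, but the difference from Jejunum was 1.60 ± 0.18, short of the threshold. ELN, the elastin gene, passed at 3.19 ± 0.31 with 3.83, 4.55 and 5.24 in Spleen and 1.01, 1.30 and 1.96 in Peyer. The collagen gene COL21A1 passed at 2.87, although its 3 probes ran from -1.41 to 2.93. COL4A3, also for collagen, was well above background on 0 of the 18 arrays outside Spleen and was at least 3.37-fold higher. These matrix genes were picked after their values were seen.

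Platelet genes gave 1 call among 14 measured of 20, where 1.3% of all genes were called higher. It was RASGRP2, which switches on platelet integrins, by 2.02 ± 0.35 (1.76 without the Peyer array of animal 71). ITGA2B and GP9, which define the lineage, differed from Liver by -0.46 and -0.77, whereas PPBP exceeded every other tissue by 0.87. The list's median smallest difference was -0.46, against -0.34 over all genes tested. CELA1, an elastase that was on the exocrine pancreas list, was higher by 2.96 ± 0.36 with -1.22, 0.40 and 0.68 in Spleen and -3.59, -3.01 and -2.54 in Jejunum. Its listed neighbours CPA1 and CELA2A were not called, at -1.12 and -0.02 from Peyer. The mean of the 7 measured pancreas genes was -2.67 to -0.33 on Spleen arrays, -3.46 to -2.25 on Liver, -0.29 to 0.35 on Jejunum and -0.77 to 0.10 on Peyer. That mean includes SPINK1, which differed from Peyer by -13.02, whereas AMY2, CEL and CLPS differed from Peyer by 1.97, 0.1 and -1.32. The part of pancreas in the CELA1 result was not tested.

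IL6 and IL10 also stood among the 140 and were picked after their values were seen. IL6, a cytokine of fever and of antibody responses, had -0.54, 0.21 and 0.64 in Spleen, -4.70, -4.33 and -3.57 in Liver, -7.06, -6.15 and -5.63 in Jejunum, and -5.72, -2.61 and -2.41 in Peyer. All Spleen arrays were above all others, the smallest difference was 3.31 ± 0.41, and its 4 probes gave 3.02 to 3.35. IL10, which restrains inflammation, differed by 2.22.

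**Figure D3:**
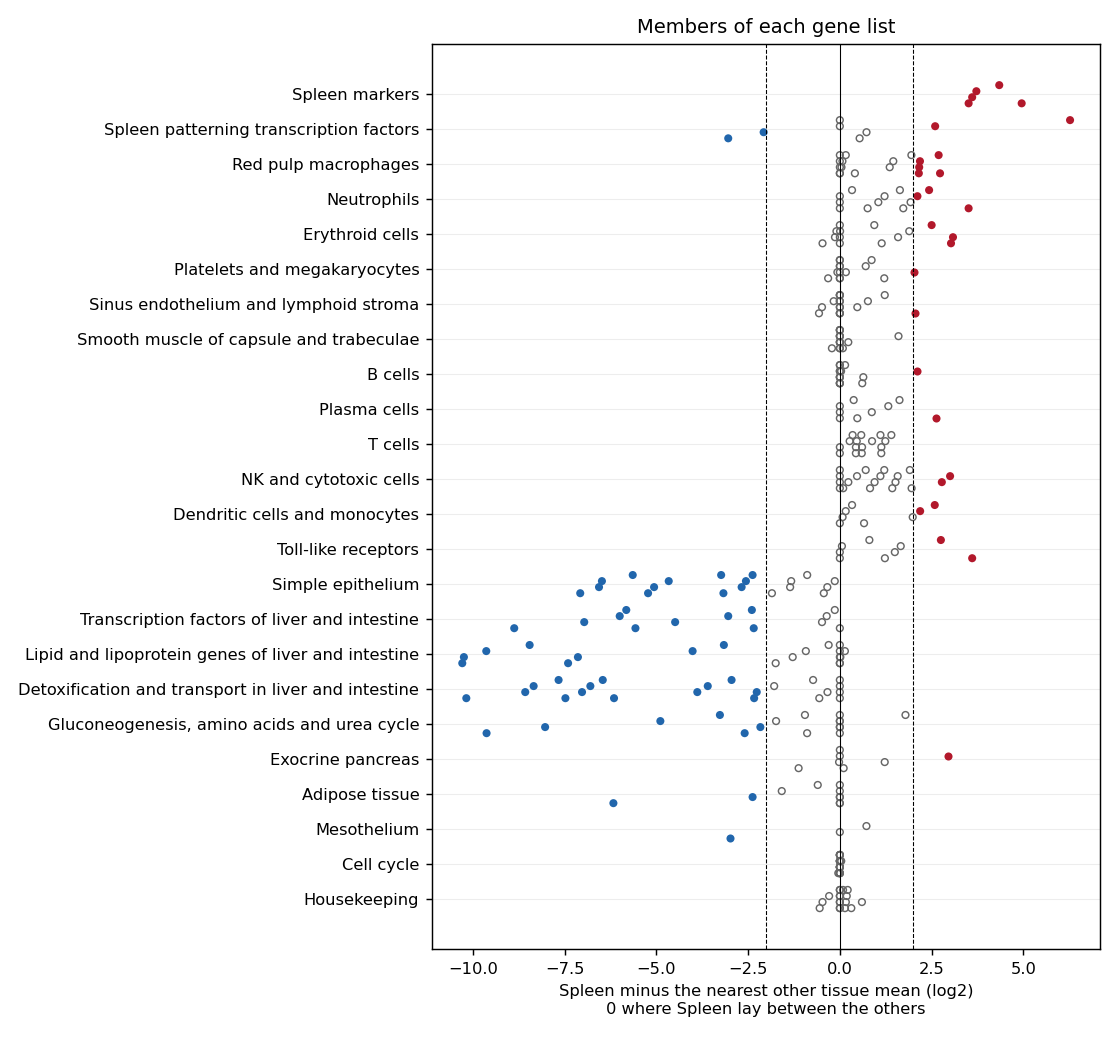
Each measured member of the gene lists, with Spleen minus the nearest other tissue mean (log2) on the x axis, set to 0 where Spleen lay between the other tissues, filled where called and open where not. Called members of the immune lists (red) lie between 2.11 for BTK and 3.61 for TLR8, whereas the lists of epithelium and metabolism reach down to -10.29 for APOB (blue).

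By the rule, the genes lower in Spleen are ones that liver and both gut tissues express more. In the simple epithelium list 19 of 22 genes were measured and 12 were called lower, where 2.51% of all genes were. KRT8, a keratin of simple epithelia, had -4.03, -1.77 and 2.19 in Spleen, 5.05, 5.64 and 5.81 in Liver, 7.78, 7.87 and 8.18 in Jejunum, and 6.47, 6.65 and 7.87 in Peyer. The groups did not overlap, though a single Spleen array, that of animal 73, reached 2.19. The smallest difference was -7.08 ± 0.61 (limma adjusted p = 4.1e-10). KRT18, its partner, differed by -6.56 ± 0.57, the adhesion gene CDH1 by -5.06 (3 probes from -5.06 to -1.25) and the junction genes CGN and CLDN4 by -6.48 and -5.65.

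**Figure D4:**
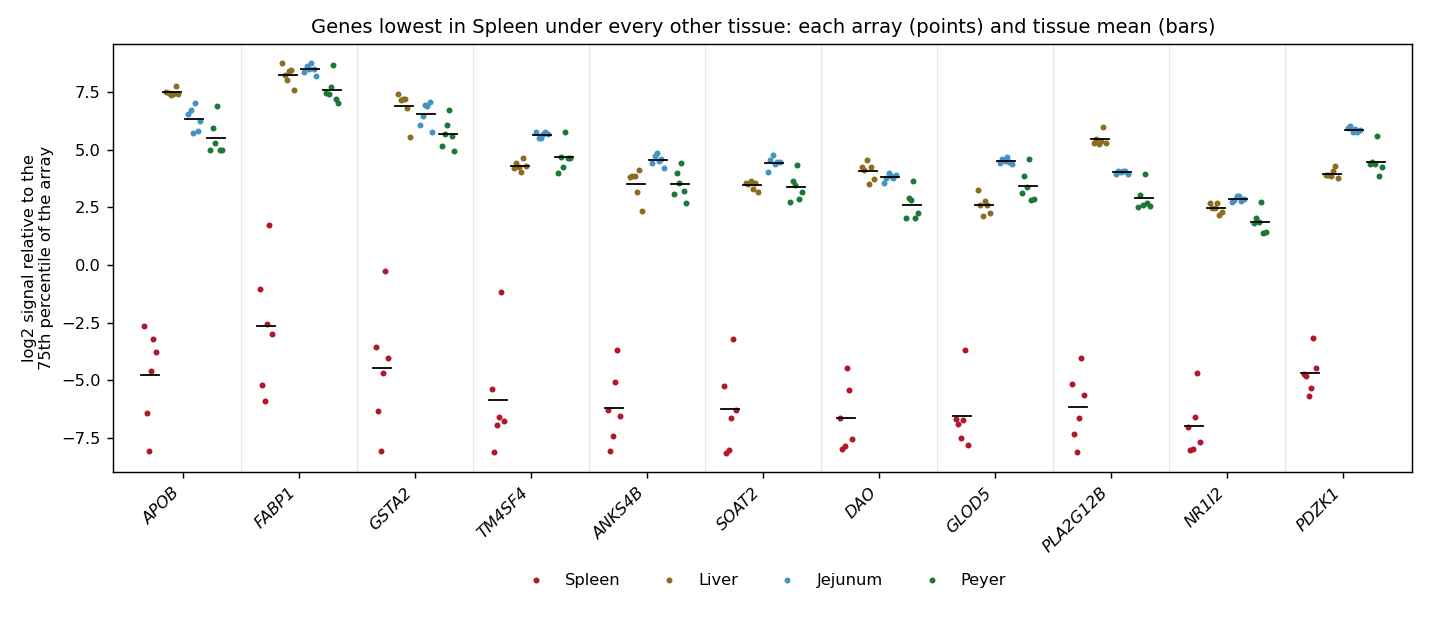
Levels (log2 signal relative to the 75th percentile of the array) of the genes furthest below every other tissue among those well above background on all 18 other arrays, 1 point per array and a bar for each tissue mean, with 6 arrays per tissue. Spleen arrays lie under all others for these genes and spread widely, as for FABP1 between -5.89 and 1.74.

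Lipid handling included APOB and FABP1, the genes with the lowest values. APOB, the core protein of lipoproteins, had -8.08, -4.19 and -2.63 in Spleen, 7.36, 7.44 and 7.75 in Liver, 5.73, 6.40 and 7.02 in Jejunum, and 4.97, 5.13 and 6.88 in Peyer. Spleen was far below the rest and APOB was well above background on 3 of 6 Spleen arrays. The smallest difference was -10.29 ± 0.62 (limma adjusted p = 1.8e-12), the most extreme of 3 probes, which ran from -10.29 to -3.99.

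FABP1, a fatty acid carrier, had -5.89, -2.79 and 1.74 in Spleen, 7.57, 8.34 and 8.74 in Liver, 8.18, 8.50 and 8.74 in Jejunum, and 7.04, 7.45 and 8.66 in Peyer. Its smallest difference was -10.25 ± 0.78, and 4 probes gave -11.01 to -10.25. SOAT2, which esterifies cholesterol, differed by -9.64 ± 0.53 and MTTP, which loads lipid onto APOB, by -8.45. Of 20 lipid genes 19 were measured and 8 were called lower, where 2.51% of all genes were. The list's median was -1.29 against 0.57 over all genes tested (Spleen minus the lowest other tissue). Those not called include genes high in liver or in gut but not in both. RBP4, the retinol carrier, differed from Liver by -8.78 but from Jejunum and Peyer by 0.09 and 0.32. FABP2, the intestinal fatty acid carrier, differed from Jejunum by -13.82, and it was not well above background on any Liver array.

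Detoxification genes followed, with 22 of 26 measured and 14 called lower, where 2.51% of all genes were. GSTA2, a glutathione transferase, had -8.05, -4.37 and -0.25 in Spleen and at least 4.93 on every other array, a smallest difference of -10.18 ± 0.77. UGT1A6, which attaches glucuronic acid to drugs, differed by -8.57 ± 0.46, CYP3A29 by -6.80 and the bile canalicular pump ABCC2 by -7.03, although the 4 ABCC2 probes ran from -7.03 to -1.33. The list's median was -3.28.

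In gluconeogenesis and amino acid metabolism 16 of 20 genes were measured and 6 were called lower, where 2.51% of all genes were. The urea cycle enzyme OTC differed by -8.03 ± 0.35. ASS1, another urea cycle enzyme, differed by -4.89 and PCK1, the control point of gluconeogenesis, by -3.27. Other genes named by the rule were DAO, which oxidises D-amino acids, at -9.27 ± 0.44, PLA2G12B at -9.05 ± 0.44 and the scaffold PDZK1 at -8.65 ± 0.30. TM4SF4, ANKS4B, which organises the brush border, and GLOD5 differed by -10.14, -9.68 and -9.16. DAO, PLA2G12B, TM4SF4, ANKS4B, GLOD5, SOAT2 and ABCC2 were each well above background on 1 of 6 Spleen arrays, so the size and order of their differences rest on Spleen signals near background.

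Among transcription factors of liver and intestine 13 of 20 were measured and 9 were called lower, where 2.51% of all genes were. The list's median was -3.04, or -2.40 with factors not well above background in Spleen at their bound. NR1I2, the xenobiotic sensor PXR, had -8.01, -7.36 and -4.67 in Spleen, 2.17, 2.48 and 2.68 in Liver, 2.75, 2.85 and 3.0 in Jejunum, and 1.39, 1.83 and 2.75 in Peyer. Spleen was well above background on 1 of 6 arrays and did not overlap the others. The smallest difference was -8.88 ± 0.38 (limma adjusted p = 5.3e-15), while 3 probes ran from -8.88 to -1.56.

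HNF4A, another such factor, was not called, at -0.36 ± 0.22 from Peyer. Its 4 probes ran from -4.13 to -0.36, so the chosen probe decides that result.

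How far the lower genes lay down differed between Spleen arrays. The 270 genes had a median level of -3.67, -4.56, -4.22, -3.75, -3.12 and -4.03 on the Spleen arrays of animals 68, 69, 70, 71, 73 and 75. Animal 73 was the highest Spleen array for 100 of the 270, and animal 69 the lowest for 74. The spread within Spleen was wide, with a median SD of 0.66 over the lower genes, 0.44 over the higher genes and 0.29 over all genes. Of the 270, 39 were not well above background on any Spleen array, 97 on 1 to 5 arrays and 134 on all 6.

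On the array of animal 73 markers of gut epithelium moved with the lower genes. FABP2 was at -0.83 there, against -7.92 to -6.39 on the other 5 Spleen arrays, and KRT20 at -1.74, against -8.17 to -6.68. The simple epithelium list averaged -2.18 on that array and -4.36 to -3.55 on the other 5 Spleen arrays, against -0.10 to 0.50 on Liver, 2.46 to 2.53 on Jejunum and 1.33 to 2.49 on Peyer. A set of 234 genes higher in Jejunum and Peyer than in Liver and Spleen, none of them among the 270, had a median of -4.09 on it and -5.42 to -4.68 on the others. For 556 genes higher in Liver than in each other tissue and not among the 270, the array of animal 68 was highest, at -1.84, and the other 5 lay between -2.38 and -2.12. The part of traces from neighbouring tissue was not tested. Without the 4 arrays of animal 73, 287 genes were lower and 152 were higher.

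**Figure D5:**
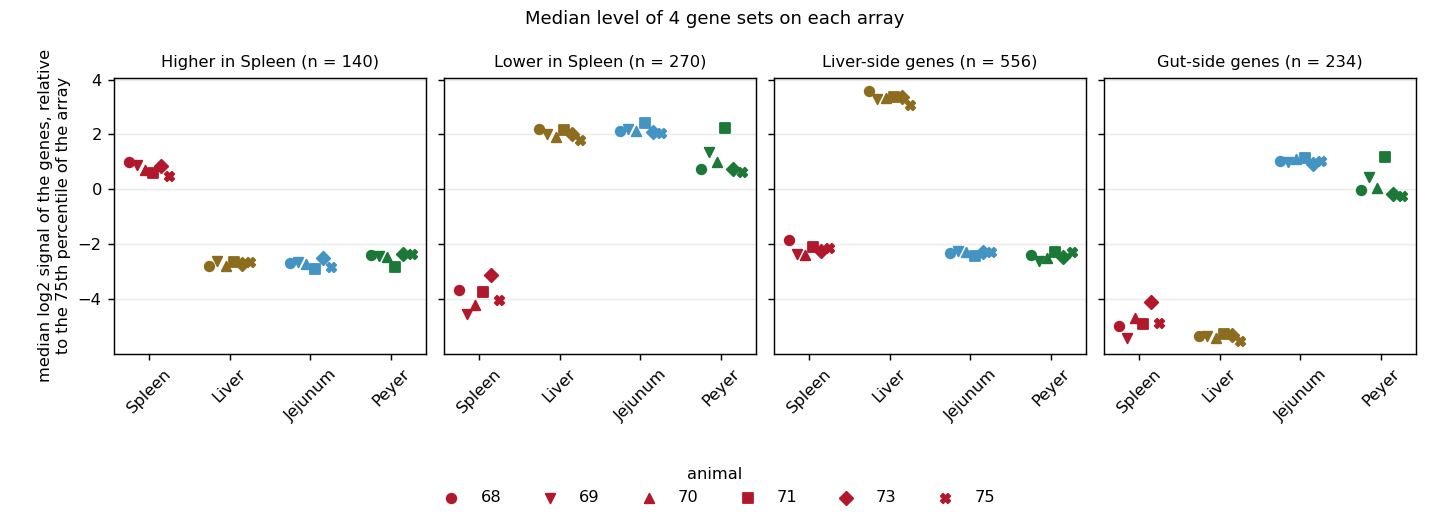
Median level (log2 signal relative to the 75th percentile of the array) of 4 gene sets on each of the 24 arrays, by tissue, with the symbol giving the animal. Spleen arrays lie between 0.48 and 1.01 for the 140 higher genes and between -4.56 and -3.12 for the 270 lower genes, and the Peyer array of animal 71 lies at 2.23 for the lower genes, over the other Peyer arrays at 0.64 to 1.37.

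The higher genes had medians closer together across animals, but their spread cannot be compared with that of lower genes near background. All 140 higher genes were well above background on all 6 Spleen arrays. Their median level was 1.01, 0.89, 0.69, 0.58, 0.86 and 0.48 on the Spleen arrays of animals 68, 69, 70, 71, 73 and 75, against -2.91 to -2.35 on the other 18 arrays. Animal 68 was the highest Spleen array for 57 of the 140 genes. Several probes were available for 65 of the higher genes, and all were past the threshold for 42. A probe that put Spleen below all 3 other tissues, by any amount, was found for 0 of them. For the lower genes the numbers were 156 and 95, and 2 had a probe that put Spleen above all 3 other tissues, by any amount. Many probes carry no gene name here. By the same rule 639 probes were higher, 287 of them named, and 966 were lower, 564 of them named.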

How the data were processed

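Per the labels, each sample was labelled with Cy3 and had an array of its own. The deposited scanner files hold signal intensity from Agilent Feature Extraction 10.10.1.1, per the submitters' processing notes, background-subtracted and not normalized between arrays. The authors deposited a table of log2 values, for which the notes name limma. All its columns have a median of 8.24. Its differences correlated with those of the scanner at 0.962 for Spleen minus Liver, 0.56 for Spleen minus Jejunum and 0.322 for Spleen minus Peyer. Per probe, the difference between the slide sets had an SD of 0.116 in it and 1.47 in the scanner signals, so it entered as an alternative only. How it was centred is unknown here.

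From 60305 probes, those with an outlier call (136) were left out, and a probe was kept where well above background on all 6 arrays of a tissue, which left 42650, 52.2% of them named. None was saturated. Log2 signals minus the 75th percentile of each array were fitted with limma 3.58.1 (R 4.3.3; lmFit and eBayes, tissue only, 24 arrays, 20 residual degrees of freedom). A gene is represented by its probe with the highest mean. Calls needed an adjusted p under 0.05 and 2 log2 units in each of 3 differences. The rule by difference alone gave 141 higher and 270 lower. Where a tissue had no array well above background, the fold is a lower bound against the lowest signal well above background on each array, or the gene's own signal where higher. The fit was tested on simulated data.

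The replicate numbers are animals and pair the samples. Deviations from tissue means correlated at a mean of 0.17 over 36 pairs of the same animal (26 over 0.1) and -0.034 over 180 pairs of different animals. Alternatives were median and quantile scaling, normexp, the authors' values, other filters, blocks for animal and slide, the gene mean, and arrays left out.

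Named genes are the 15 highest called (well above background on all 6 Spleen arrays), the 12 lowest called (on all 18 others), 5 markers, 2 members of each of 24 lists with the largest smallest difference in the direction most members took, and 3 genes on each side of each threshold. Other genes are said to be picked after their values were seen, or are list members given beside the list's count. The members, lists and rule were chosen with earlier results of these data known. List members with no tested named probe were not analysed here, and some genes the rule chose are not reported here.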

Additional observations from a re-analysis of the deposited data

Results flagged for a closer look

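Of 292 groups of 6 arrays tested for a single array far from the rest (Dixon's test at 95%), 41 had one, where chance alone gives about 1 in 20. Animal 71 accounts for 19 of them. Values are levels (log2), and no cause was tested.

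In Spleen, GLOD5 was -3.7 in animal 73, above the other 5 at -7.83 to -6.67. In Spleen, KRT7 was 0.28 in animal 73, above the other 5 at -1.67 to -1.26. In Spleen, ADA was 4.58 in animal 71, below the other 5 at 5.6 to 6.12. In Spleen, ACTA2 was 6.89 in animal 70, below the other 5 at 7.56 to 7.72. In Spleen, CELA2A was -3.5 in animal 71, below the other 5 at -0.79 to 0.7.

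The Liver array of animal 73 was above the other 5 for GSC (-6.45), FCRL5 (-6.71), APOB (7.75) and PLA2G12B (6.0). The Liver array of animal 75 was below the other 5 for GSTA2 (5.57) and MADCAM1 (1.16). The Liver array of animal 70 was below the other 5 for CCL21 (-0.37). The Liver array of animal 68 was below the other 5 for CSF1R (-2.41). The Liver array of animal 73 was below the other 5 for SLAMF7 (-6.19). The Liver array of animal 71 was below the other 5 for CELA2A (-1.84).

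The Jejunum array of animal 75 was above the other 5 for LYPD1 (-4.49). The Jejunum array of animal 68 was above the other 5 for GSC (-4.59). The Jejunum array of animal 70 was below the other 5 for KCNIP1 (-7.27), ADA (1.25) and NR5A1 (-8.17). The Jejunum array of animal 71 was below the other 5 for SYNPO2 (-3.63) and ZNF366 (-7.82). The Jejunum array of animal 75 was below the other 5 for UPK1B (-4.96) and TMEM86B (2.01).

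The Peyer array of animal 75 was above the other 5 for WT1 (-4.76). The Peyer array of animal 71 was above the other 5 for PLA2G12B (3.94), PDZK1 (5.58), KRT8 (7.87), CIDEC (4.43), CRYGS (0.46), GSTK1 (5.78) and EPS8L3 (5.49). The Peyer array of animal 73 was above the other 5 for ZNF366 (-4.93). The Peyer array of animal 71 was below the other 5 for ITGAD (-7.11), FCRL5 (-8.25), CD37 (-4.14), CELA2A (-4.72), UPK1B (-3.45), RRM2 (1.21) and SH2D1A (-3.93). The Peyer array of animal 75 was below the other 5 for XCR1 (-1.82).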

How the results depend on the processing

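The counts were 140 genes higher and 270 lower. With normexp background correction they were 70 and 164, all among the 140 and 270. With the authors' deposited values 12 were higher, 7 of them among the 140, and 286 lower. With only probes well above background on all 24 arrays, a filter that by its construction tests fewer genes, they were 82 and 136. The cause of the other changes was not tested. Median scaling gave 104 and 311, quantile normalization 147 and 286, no filter 156 and 271, and the gene mean 141 and 257. Leaving out 1 animal gave 118 to 155 higher and 253 to 287 lower. With the replicate block for animal, and with slide as a random block, both counts were 140 and 270, and no named call changed. Leaving out the Spleen array of animal 71, chosen after seeing the data, gave 136 and 274.

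Of 1269 values for the 77 genes the rule chose, 1142 kept their direction and side of the threshold, 95 lost the call, 31 gained it and 1 turned: AQP7 was 0.08 with the authors' values. The median difference over all probes, from Liver, Jejunum and Peyer, was 0.15, 0.16 and 0.18 with the 75th percentile and 0.04, 0.07 and -0.09 with median scaling. The share of probes well above background ranged over arrays from 60.4% to 75.6%, which limits what can be said of low genes.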
